A study of Mus musculus with 16 samples.

Results

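The polyA RNA of mouse cells labelled as cultured juxtaglomerular (JG) cells was compared between cultures transfected with miR-106b and cultures transfected with a control. The markers measured, given below, went against that label. JG cells are the renin-producing cells in the wall of the kidney's afferent arterioles, and by the labels those used here carried a YFP reporter driven by the renin promoter. The control was a microRNA precursor of non-mammalian sequence, and RNA was taken from 4 separate cultures of each group 48 h after transfection. The series holds 16 libraries, of which the 8 polyA libraries are described here. The genes were those with at least 1 CPM, a count scaled to the size of the library, in at least 3 of the 4 libraries of either group, which kept 14292 of the 46078 genes in the table, 12930 of them protein-coding.

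A miRNA loaded into Argonaute pairs through its seed, bases 2 to 8, with sites that lie mostly in the 3′UTRs of mRNAs, and the paired mRNAs are destabilised or less translated. miR-106b belongs to the miR-17 family, whose members share one seed and are best known for acting on brakes and drivers of the G1 to S transition of the cell cycle. Transcripts can also move without a site, because a change in proliferation, metabolism or cell composition carries whole functional groups with it.

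Both arms of miR-106b are printed because the matches described later rest on their seeds, which are in capitals. The mature sequences are those of RefSeq on GRCm38.p6, minus strand, at chr5:138165787-138165807 for the 5p arm and chr5:138165746-138165767 for the 3p arm.
mmu-miR-106b-5p: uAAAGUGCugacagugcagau
mmu-miR-106b-3p: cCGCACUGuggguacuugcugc

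Between 5692958 and 9459585 reads were counted on genes in the control libraries and between 2815272 and 4554848 in the miR-106b libraries, so that the 2 groups did not overlap in depth. A floor of 3 counts corresponds to between 0.317 and 1.07 CPM, depending on the library. Floors and intervals cover counting error only, since the reads carry no molecular identifiers that would mark PCR copies. Transcripts of the mitochondrial genome took 0.837% to 0.941% of the counts in control and 1.11% to 1.75% with miR-106b, and the 10 genes with most counts in each library took 6.36% to 6.44% and 7.47% to 9.04% (exact permutation test, two-sided, p = 0.0286 for both, the smallest that 70 relabellings allow). The miR-106b libraries were the more variable, with a median SD of log2 CPM of 0.323 against 0.163 in control. In these bulk libraries fewer cells of a type and less RNA per cell cannot be told apart.

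The label was checked against defining markers. Ren1, the renin gene, had 0 counts in all 8 libraries, and Akr1b7, another JG marker, lay between 0 and 0.552 CPM. Several mural markers were present, among them Pdgfrb at 106.3 to 143 CPM and Rgs5 at 33.3 to 45.0 CPM in control. Genes specific to heart muscle had high counts already in control, where Myh6, the cardiac alpha myosin heavy chain, stood at 10648, 8256, 8934 and 11831 CPM. Ren1 has a row in the table, but whether the alignment or counting could have dropped its reads was not tested, so the 0 does not show that the gene was silent. In control the cardiomyocyte markers summed to 17837 to 25477 CPM, and endothelial, leukocyte and red cell markers were present too, with values given later. These levels went against cultured JG cells, and whether the libraries hold RNA of another tissue was not tested. Every value below is one of the libraries as labelled and cannot be assigned to JG cells.

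Rises and falls reached across the whole range of expression. In edgeR's quasi-likelihood test with Benjamini-Hochberg adjustment 6053 genes (42.4%) had an adjusted p under 0.05, of which 2861 (20.0% of the genes tested) rose and 3192 (22.3%) fell with miR-106b. The median log2 fold change over all genes tested was -0.06. The groups did not overlap in 2488 genes that were higher and 3173 that were lower with miR-106b, together 39.6% of the genes tested. The split between rises and falls depended on the scaling. Of the genes called, 47.3% were higher in the fit reported here, whose calls were those of TMM scaling referred to miR-106b library 1. With library size only it was 45.1%. Rises led with every other TMM reference, from 52.3% referred to miR-106b library 4 to 62.7% referred to miR-106b library 2. The median over all genes was 0.07 with the latter. Rises also led with DESeq2 size factors (54.8%), upper quartile scaling (55.7%) and all 16 libraries in 1 fit (62.5%).

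Rises were larger than falls. Among the risen genes the median rise was 1.01 on the log2 scale, with quartiles of 0.67 and 1.24, and 1443 of them (50.4%) changed at least 2-fold. Among the fallen genes it was -0.67, with quartiles of -0.95 and -0.48, and 723 of them (22.7%) changed at least 2-fold. The rises were also bunched. A log2 fold change between 1.1 and 1.4, bounds chosen after the values were seen, held 908 of the 2861 risen genes (31.7%), and 304 lay above it. Among genes at 300 CPM or more no rise exceeded 1.30.

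**Figure D1:**
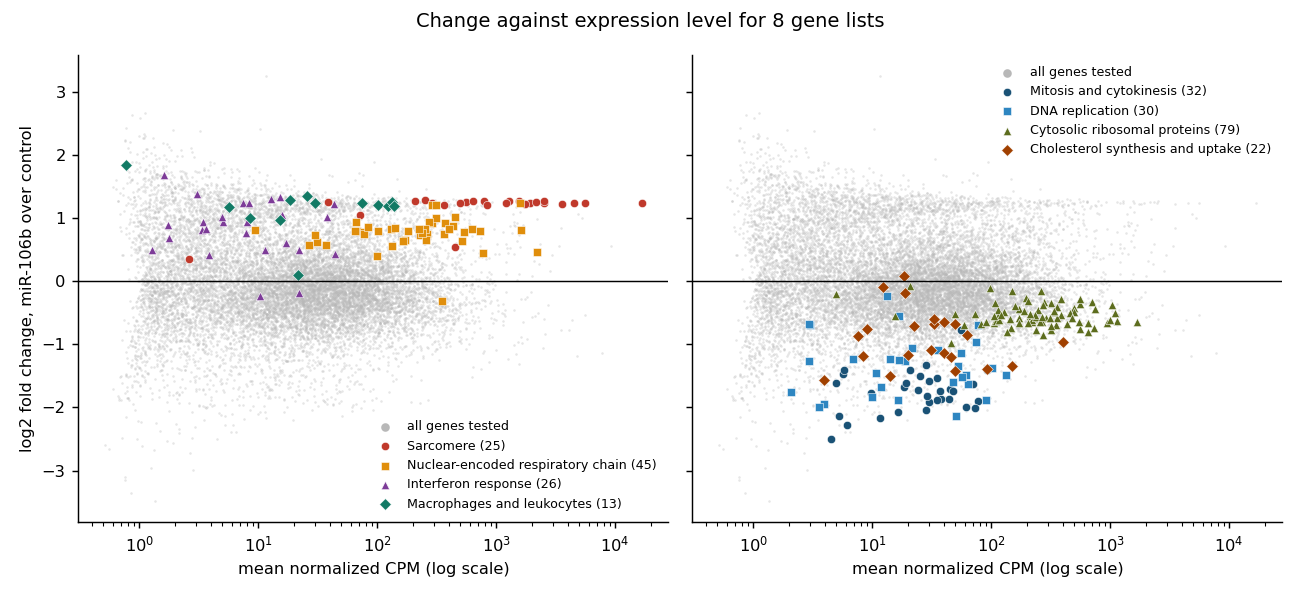
Log2 fold change of each of the 14292 genes tested (y axis, miR-106b over control) against its mean CPM over the 8 polyA libraries (x axis, log scale), as grey points in both panels. Coloured symbols mark 4 lists that mostly rose on the left and 4 that mostly fell on the right. Most sarcomere genes lie on a flat edge near 1.30 up to the highest levels, and mitosis genes lie lowest, below 100 CPM.

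The genes were then placed in 8 ranges of mean CPM. The share that rose was 11.1% of 217 genes under 1 CPM, 12.6% of 2093 genes from 1 to 3 CPM and 23.1% of 2658 genes from 3 to 10 CPM. It stayed between 19.1% and 25.4% from 10 to 1000 CPM and was 48.4% of the 95 genes at 1000 CPM and above. The share that fell was 10.1% under 1 CPM. It climbed from 4.83% between 1 and 3 CPM to 12.8%, 24.4%, 30.7%, 34.2% and 36.0% in the next ranges, and was 34.7% at 1000 CPM and above. In the fit reported, falls outnumbered rises in every range from 10 to 1000 CPM, and rises outnumbered falls below 10 CPM and at the top. The lead of falls depended on the scaling. With TMM referred to miR-106b library 2 rises led in all 8 ranges, for example with 960 risen and 717 fallen genes from 30 to 100 CPM, and with DESeq2 size factors rises led from 10 to 30 CPM (743 against 676) while falls led from 30 to 1000 CPM. The lead of rises from 1 to 10 CPM and at the top held under every alternative run. The filter shaped the lowest ranges. Under 1 CPM no gene passed it in both groups, so that the 24 risen genes had all passed through miR-106b alone and the 22 fallen ones through control alone. From 1 to 3 CPM this held for 173 of the 263 risen and 71 of the 101 fallen genes, and from 3 to 10 CPM for 1 of 614 and 10 of 341. The shares below 3 CPM are therefore no measure of how often such genes changed. Counts also limit what can be called there, and the median rise that passed the test from 1 to 3 CPM was 1.47 and the median fall -1.52.

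**Figure D2:**
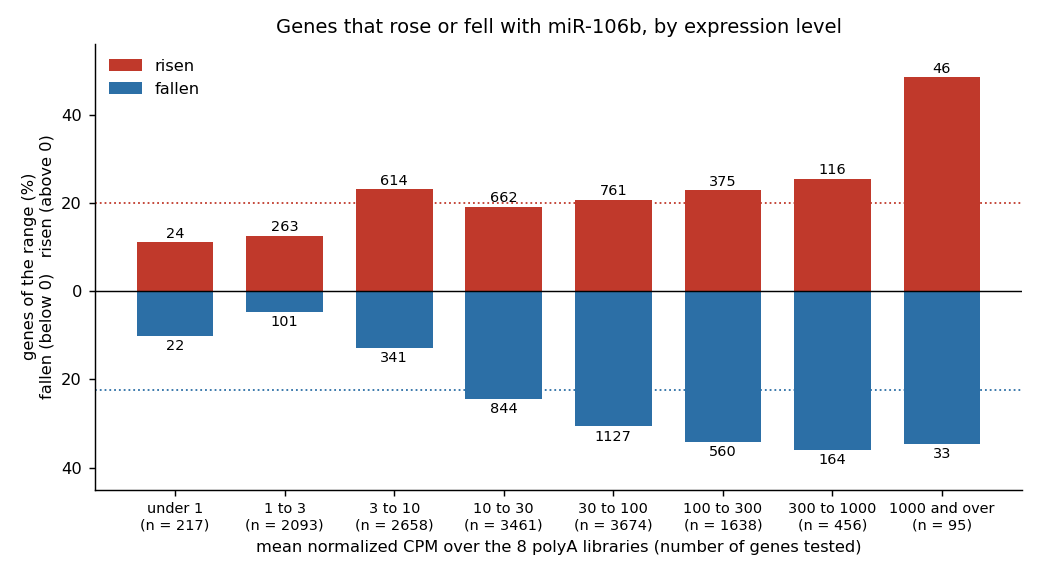
Share of genes that rose (bars above 0) or fell (bars below 0), in percent of the genes tested (y axis), in each range of mean CPM (x axis). The numbers at the bars count genes, and the dotted lines mark the shares over all genes tested, 20.0% and 22.3%. In this scaling falls lead from 10 to 1000 CPM, which turns to rises with TMM referred to miR-106b library 2, and rises lead in the top range, where 46 of 95 genes rose and 33 fell.

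A level in CPM grows with transcript length, so the ranges were repeated on CPM per kilobase of exon. Of the 119 genes at 300 CPM per kilobase and above, 59 rose and 35 fell, and the median was 0.41 on the log2 scale. The top of the range thus leaned to rises on either scale.

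The genes with the highest CPM were split by function. Of the 46 risen genes at 1000 CPM and above, 12 encode sarcomere proteins, 6 lie in the mitochondrial genome and 5 encode collagens or other matrix proteins. The 33 fallen ones held 5 ribosomal proteins, 4 actin cytoskeleton, 3 translation and 3 collagen or matrix genes, so that matrix genes stood on both sides. Together the genes of this range took 20.0% of the counts in control and 23.4% with miR-106b.

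The largest rise in this range was that of Actn2, the alpha-actinin of the muscle Z-disc, with 808, 627, 674 and 893 CPM in control and 1309, 2225, 1496 and 2248 CPM with miR-106b. Its rise was 1.28 (log2) with SE 0.195 and adjusted p = 0.000787 in edgeR's quasi-likelihood test. Its groups did not overlap. The largest falls were those of Fbln2, a matrix glycoprotein, and Ank, which exports pyrophosphate. Fbln2 went from 2171, 2396, 2275 and 1946 CPM to 596, 1124, 1309 and 524 CPM (log2 fold change -1.31 with SE 0.258, adjusted p = 0.00197 in edgeR's quasi-likelihood test). Ank changed by -1.24, and neither gene's groups overlapped.

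Between 300 and 1000 CPM the risen genes were led by Nrap and Hrc, which serve myofibril assembly and calcium buffering in the sarcoplasmic reticulum, with log2 fold changes of 1.30 and 1.29. The 116 risen genes of this range held 12 subunits of the respiratory chain, 7 sarcomere and 6 citric acid cycle genes. The 164 fallen genes held 24 cytosolic ribosomal proteins. Among the named falls was S100a6, a calcium-binding protein, which fell by 1.39 on the log2 scale.

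From 100 to 300 CPM the largest rises were those of Sfrp2, a secreted modulator of Wnt signalling (1.62), and Cxcl12, a chemokine made by stromal cells (1.45). The largest falls were those of Il1rl1, the receptor of interleukin-33 (-1.93), and Hmga2, an architectural chromatin protein of growing cells (-1.91). Hmga2 went from 292, 344, 329 and 249 CPM to 39.3, 93.3, 161 and 28.2 CPM. Il1rl1 was no longer past the threshold without miR-106b library 1 (-1.62), and without miR-106b library 3 its change was -2.54. Of the 375 risen genes here 17 were respiratory chain subunits and 9 served fatty acid use, and of the 560 fallen genes 36 were ribosomal proteins and 10 splicing factors.

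From 30 to 100 CPM the named rises were Bmf, a pro-apoptotic BH3-only protein (1.93), and Islr, a secreted leucine-rich repeat protein (1.68). Bmf stood at 118 CPM in miR-106b library 1 and at 19.0, 22.1 and 54.2 CPM in the others. Its log2 fold change was 1.20 without that library, and it did not pass the threshold without control library 2. The named falls were Pole, the catalytic subunit of the leading-strand DNA polymerase (-2.13), and Etv4, an ETS factor (-2.06, and -2.64 without miR-106b library 3). Among the 1127 fallen genes of this range were 14 of mitosis, 11 of DNA replication and 10 of cholesterol synthesis, and among the 761 risen ones 10 of fatty acid use and 9 cardiac transcription factors or natriuretic peptides.

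From 10 to 30 CPM the named rises were Slc36a2, an amino acid transporter (1.72), and H19, an imprinted noncoding RNA (1.68), and the named falls included Kif4, a chromosome-associated kinesin (-2.17). H19 moved evenly, from 10.2, 7.30, 7.18 and 10.1 CPM to 24.8, 29.0, 22.3 and 35.7 CPM. From 3 to 10 CPM the named rises were Rnls, a flavoenzyme (2.38), and C1qtnf2, a secreted C1q and TNF related protein (1.89), and the named falls were Bub1, a kinase of the spindle checkpoint (-2.50), and Kcnk12, a potassium channel subunit (-2.40). The 614 risen genes of that range held 8 interferon-response genes, and the 341 fallen ones 12 of DNA repair.

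The lowest ranges held few listed genes. All 8 genes named here passed the filter only through the group in which they were higher, so that their values are given as a description. From 1 to 3 CPM Ddx60, an interferon-induced helicase, rose by 2.66 and Krt19, an epithelial keratin, by 2.39, while Plk4, the kinase that starts centriole duplication, changed by -2.99 and Klhl1, an actin-binding Kelch protein, by -2.73. Plk4 went from 7.09, 4.27, 5.08 and 3.83 CPM to 0.446, 1.07, 0.828 and 0 CPM. Under 1 CPM the named rises were Col28a1, a collagen chain, and Hrh2, the histamine H2 receptor, each on 7 counts in control and 18 with miR-106b over the 4 libraries. The named falls were Insm1, a neuroendocrine zinc finger factor, with 47 counts in control and 2 with miR-106b, a ratio of control to miR-106b of 12.3 (95% interval 3.22 to 104), both miR-106b counts being in library 3, and Hist1h2ab, a histone gene, with 40 and 2 counts and a ratio of 10.5 (2.71 to 89.3). The rises of Col28a1, Hrh2 and Ddx60 did not pass the test when all libraries were thinned to the depth of the shallowest.

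By biotype, 2758 of the 12930 protein-coding genes rose and 3079 fell, and 69 of 710 long noncoding genes rose and 60 fell. Of 305 pseudogenes 33 (10.8%) fell and 11 (3.61%) rose, both shares below those of all genes, with a median of -0.31. Their median level was 1.78 CPM, and of all genes from 1 to 3 CPM 4.83% fell and 12.6% rose. The share of pseudogenes that fell was thus above that of genes at their level. Reads of pseudogenes can be shared with their parent genes.

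To describe functions, 38 lists of genes were compared with the background of 20.0% risen and 22.3% fallen. The median log2 fold change of a list was taken per library, and in 10 lists every miR-106b library lay above every control library, in 18 below. A sign that changed with the scaling was found only for the medians of the reported miRNA targets and the Zfp proteins among these lists.

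**Figure D3:**
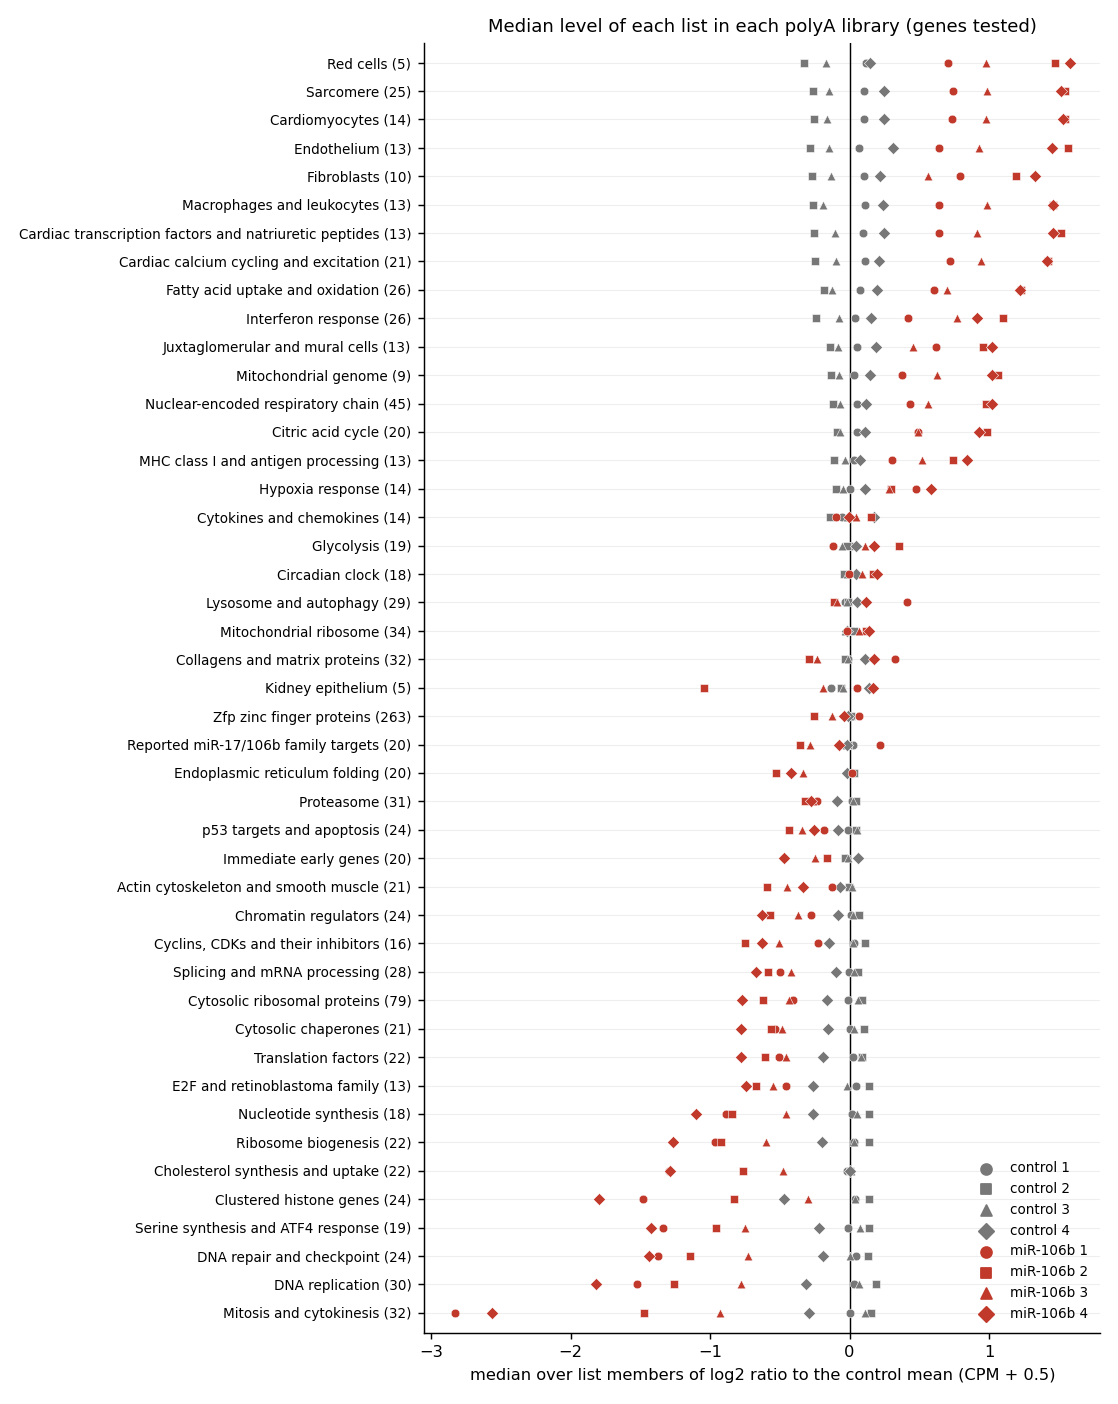
Median over the members of each list of the log2 ratio to the control mean, taken after adding 0.5 to CPM (x axis), for the 38 function and 7 marker lists (y axis), with a symbol per library, grey for control and red for miR-106b. Cell cycle and biosynthesis lists are below 0 in all 4 miR-106b libraries, and the cardiac, fatty acid, citric acid cycle and respiratory chain lists and most cell type markers are above 0 in all 4. The mitochondrial ribosome stays near 0, with -0.02 in miR-106b library 1.

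Cell division genes fell together. All 32 tested genes of mitosis and cytokinesis fell (median log2 fold change -1.74), as did 27 of 30 genes of DNA replication (median -1.36), 16 of 18 of nucleotide synthesis (median -0.89) and 19 of 24 of DNA repair and checkpoints (median -1.26). No gene of these lists rose. Of the fallen genes, 2 of replication and 1 of DNA repair had passed the filter only through control, where they were higher. The number that fell over all alternatives lay between 25 and 32 for mitosis and between 26 and 28 for replication. The fall differed among the miR-106b libraries. The median log2 ratio of the mitosis genes to control was -2.83, -1.48, -0.93 and -2.56 in libraries 1 to 4, so that libraries 1 and 4 were the lowest.

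Ect2, which activates RhoA for cytokinesis, showed this spread. It stood at 27.6, 29.2, 26.2 and 24.0 CPM in control and at 3.12, 8.58, 11.0 and 2.23 CPM with miR-106b (log2 fold change -2.08 with SE 0.324, adjusted p = 0.000787 in edgeR's quasi-likelihood test). Cep55, an abscission factor, changed by -2.29, and Cenpa, the centromeric histone, had the smallest fall of the list at -0.78. Of the replicative helicase, Mcm2 went from 145, 165, 155 and 119 CPM to 37.5, 66.0, 77.8 and 43.5 CPM (log2 fold change -1.38), and Mcm4 and Mcm6 changed by -1.34 and -1.48. Gins4, another part of that helicase, stood at 11.8 to 16.7 CPM in control and 9.29 to 15.0 CPM with miR-106b and did not pass the test. The groups of the named replication genes other than Gins4 did not overlap.

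Among the enzymes of nucleotide synthesis, Rrm1 and Rrm2, the subunits of ribonucleotide reductase, changed by -1.57 and -1.95. Rrm2 went from 97.4, 126, 114 and 82.8 CPM to 11.8, 35.7, 48.3 and 12.3 CPM. Dut, which keeps uracil out of DNA, changed by -1.04 and Cad, which opens pyrimidine synthesis, by -1.02. In DNA repair, Exo1, an exonuclease of mismatch repair, changed by -2.19, and Atm, the kinase that answers double-strand breaks, by -1.25. Parp1 had log2 fold change -0.28 and did not pass the test.

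The regulators of the cycle were less uniform. Of 16 cyclins, CDKs and inhibitors 8 fell and 1 rose, with a median of -0.50. Of the 8 that fell, 1 had passed the filter only through control. Ccna2, cyclin A2, changed by -1.98, from 36.6 to 61.0 CPM in control to 5.80 to 20.1 CPM, and Cdk2, its partner, by -1.03. The inhibitor Cdkn1a (p21) also fell, by 0.59 on the log2 scale, whereas the inhibitor Cdkn1c (p57) rose by 1.10. In the E2F and retinoblastoma family 8 of 13 genes fell and 2 rose. E2f7 and E2f8, which are among the repressive members, changed by -1.91 and -1.52, Tfdp1, a dimer partner, by -1.02, and E2f6 rose by 0.65. The second rise, of Tfdp2, was lost in several of the fits without 1 library.

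Of 24 chromatin regulators 15 fell and 1 rose, with a median of -0.43. The fallen ones included Dnmt1, the maintenance DNA methyltransferase (-1.12), and Chaf1a, Chaf1b and Asf1b, which deposit histones behind replication forks (-1.51, -1.48 and -1.81). The 1 that rose was Dnmt3a, a de novo methyltransferase (0.56). Of 24 clustered histone genes, whose mRNAs mostly lack a polyA tail, 8 fell and 2 rose, but 7 of the 8 had passed the filter only through control, where they were higher, so that the falls are given as a description. Hist1h2ap changed by -2.28, and Hist1h2bc rose by 1.22. The number fallen was 4 when the filter was a mean of 10 counts or more, and it moved with single libraries, to 5 fallen without control library 2, 4 without control library 3 and 13 without miR-106b library 3, and near-identical histone genes can share reads.

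Genes of protein synthesis fell, less steeply. Of 79 cytosolic ribosomal proteins 71 fell and none rose (median -0.56), and all 22 ribosome biogenesis genes fell (median -0.91). Of 22 translation factors 17 fell (median -0.59) and of 28 splicing genes 25 (median -0.55), again with no rise. Npm1, a nucleolar chaperone of ribosome assembly, stood at 198, 221, 212 and 177 CPM in control and at 83.0, 85.0, 119.7 and 53.5 CPM with miR-106b (log2 fold change -1.24 with SE 0.188, adjusted p = 0.000787 in edgeR's quasi-likelihood test). Rps15a had the largest fall of the ribosomal proteins (-0.98). Ribosomal protein genes have many pseudogenes that can share their reads. With TMM referred to miR-106b library 2, 16 splicing genes fell.

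Of 21 cytosolic chaperones 15 fell and 3 rose (median -0.57). Subunits of the CCT chaperonin fell, among them Cct6a (-1.06), and Hsp90aa1 changed by -0.99. The 3 that rose are small heat shock proteins or their partner in muscle, Cryab (0.93), Bag3 (0.64) and Hspb8 (0.61). Of 31 proteasome genes 14 fell and none rose (median -0.27), between 7 and 15 over the alternatives. The number fallen depended on the scaling. It was 8 with DESeq2 size factors, upper quartile scaling or TMM referred to any control library, and 7 with TMM referred to miR-106b library 2. It was 9, 7 and 8 without control libraries 1, 2 and 3 and 8 without miR-106b library 1. Of 20 genes of protein folding in the endoplasmic reticulum 7 fell and none rose, and 12 fell and 2 rose without miR-106b library 1. Pdia6, a disulfide isomerase, changed by -0.64.

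Amino acid, folate and sterol synthesis fell. Of 19 genes of serine synthesis and the ATF4 response 16 fell (median -1.12), and of 22 genes of cholesterol synthesis and uptake 19 (median -0.92), with no rise in either list. Aldh1l2, a mitochondrial folate enzyme, went from 105, 106.2, 100.2 and 71.1 CPM to 36.8, 34.6, 47.7 and 20.4 CPM (log2 fold change -1.44 with SE 0.208, adjusted p = 0.000787 in edgeR's quasi-likelihood test). Mthfd2, Mthfd1l and Shmt2 of the same pathway changed by -1.32, -1.96 and -1.09. Ddit3 (CHOP), a stress factor downstream of ATF4, had log2 fold change -0.09 and did not pass the test. Of the sterol genes, Cyp51, which demethylates lanosterol, changed by -1.20 and Stard4, a cholesterol carrier, by -1.17, and Dhcr7 was at 16.5 to 18.7 CPM in control and 16.1 to 24.5 CPM with miR-106b.

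Mitochondrial energy genes rose. Of 26 genes of fatty acid uptake and oxidation 25 rose (median 0.97), all 20 citric acid cycle genes (median 0.71), 44 of 45 nuclear-encoded respiratory chain subunits (median 0.79) and 8 of 9 genes of the mitochondrial genome (median 0.82). Lpl, lipoprotein lipase, stood at 725, 578, 614 and 810.5 CPM in control and at 1128, 2054, 1354 and 1938 CPM with miR-106b (log2 fold change 1.25 with SE 0.197, adjusted p = 0.000787 in edgeR's quasi-likelihood test). Cpt1a, the liver isoform of the carnitine palmitoyltransferase at the outer membrane, was at 102 to 113 CPM in control and 85.1 to 112 CPM with miR-106b and was the only gene of its list that did not rise. Sdhb, a subunit of succinate dehydrogenase, rose by 1.07, and mt-Co1, a subunit of cytochrome c oxidase encoded in the mitochondrion, by 0.88.

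Isoforms of one respiratory subunit moved in opposite directions in the fit reported, though the fall did not hold under many of the alternatives. Cox6a2, the heart and muscle isoform of cytochrome c oxidase subunit 6a, went from 997, 785, 875 and 1139 CPM to 1575, 2788, 1917 and 2700 CPM (log2 fold change 1.24). Cox6a1, the isoform of other tissues, went from 387, 389.6, 387 and 394 CPM to 340.0, 300.1, 309 and 297 CPM (log2 fold change -0.32 with SE 0.0982, adjusted p = 0.0195 in edgeR's quasi-likelihood test). Neither pair of groups overlapped. The fall of Cox6a1 did not pass the test without control library 1, 2 or 3 or without a filter on low counts. Nor did it pass with all 16 libraries in 1 fit, DESeq2 size factors, upper quartile scaling, or TMM referred to control library 2 or 3. TMM referred to miR-106b library 2 or 3 gave the same. Cox8b, the muscle isoform of subunit 8, rose by 1.21. The mitochondrial ribosome did not move with the chain. Of its 34 proteins 7 rose and 3 fell (median 0.05), and the rises numbered 4, 2 and 4 without control library 1, 2 or 4.

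Of 19 genes of glycolysis 6 rose (31.6%) and 5 fell (26.3%), against 20.0% and 22.3% of all genes. Without miR-106b library 1 the numbers were 10 and 3, in a fit where 3542 of 14142 genes rose. The number fallen was also 3 with DESeq2 size factors. The risen ones included Slc2a4 (GLUT4), the insulin-responsive glucose transporter of muscle and fat (1.28), Pfkm, the muscle phosphofructokinase (1.14), and Ldhb, the heart subunit of lactate dehydrogenase (1.08). The fallen ones included the broadly expressed Pgam1 (-0.83), Eno1 (-0.82) and Pgk1 (-0.75). Pgam2, the muscle phosphoglycerate mutase, which stood in the sarcomere list, rose by 1.29, from 119 to 172 CPM to 256 to 439.9 CPM.

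Heart muscle genes rose almost without exception. Of 25 sarcomere genes 24 rose (median 1.24), of 21 genes of cardiac calcium cycling and excitation 18 (median 1.19), and all 13 cardiac transcription factors and natriuretic peptides (median 1.21). Summed over the sarcomere list, the level was 25017 to 35589 CPM in control and 50043 to 86996 CPM with miR-106b, or 3.03% and 6.96% of all counts on average. Myh6 rose from the values given above to 16539, 28903, 19772 and 28782 CPM (log2 fold change 1.24 with SE 0.222, adjusted p = 0.0012 in edgeR's quasi-likelihood test). All 4 miR-106b values lay above all 4 control values. Tnnt2, cardiac troponin T, rose by 1.23 and Mybpc3, a thick filament protein, by 1.26. The exception was Myl4, the atrial essential light chain, at 1.50 to 3.47 CPM in control and 1.49 to 4.02 CPM with miR-106b.

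Ryr2, the calcium release channel, rose by 1.19, Casq2, which buffers calcium in the store, by 1.22, and Jph2, which holds the store to the cell membrane, by 1.19. Camk2d, the calcium-dependent kinase, did not pass the test (0.05). Gata4, a factor of heart development, stood at 74.2, 53.9, 56.2 and 71.4 CPM in control and at 116.9, 186, 141 and 184 CPM with miR-106b (log2 fold change 1.29 with SE 0.166, adjusted p = 0.000787 in edgeR's quasi-likelihood test). Mef2a, a muscle factor found in many tissues, had the smallest rise of that list at 0.31. The miR-106b libraries ranked alike for muscle and for fatty acid genes. The median log2 ratio to control was 0.74, 1.54, 0.98 and 1.52 for sarcomere genes and 0.60, 1.23, 0.70 and 1.23 for fatty acid genes in miR-106b libraries 1 to 4, and among the control libraries 4 was the highest and 2 the lowest for both.

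Markers of other cell types moved with the cardiac genes. All 13 endothelial markers rose (median 1.22, summed level 372 to 554 CPM in control and 733 to 1330 CPM with miR-106b), as did 12 of 13 macrophage and leukocyte markers (1.21, 353 to 505 and 694 to 1169 CPM), all 10 fibroblast markers (1.21, 11067 to 13091 and 14302 to 27948 CPM), 4 of 5 red cell markers (1.25, 28.6 to 43.2 and 66.9 to 115.6 CPM) and 13 of 14 cardiomyocyte markers (1.24, 17837 to 25477 and 35820 to 62305 CPM). The endothelial medians per library were 0.06, -0.28, -0.15 and 0.31 in control and 0.64, 1.57, 0.93 and 1.45 with miR-106b, close to those of the sarcomere genes at 0.11, -0.26, -0.15 and 0.25 and 0.74, 1.54, 0.98 and 1.52. Libraries with more cardiac transcripts thus also had more endothelial ones, within the control group as well. Of the 12 leukocyte markers that rose, 1 had passed the filter only through miR-106b, where it was higher. The part of these cell types in the rises of the cardiac, mitochondrial, matrix and interferon genes was not tested.

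Cdh5, the cadherin of endothelial junctions, went from 121, 95.3, 95.3 and 136 CPM to 191, 339, 238 and 321 CPM (log2 fold change 1.28). C1qa, a complement chain made by macrophages, went from 87.3, 63.0, 68.8 and 84.3 CPM to 115, 204, 158 and 214 CPM (1.19), while Cd14, a monocyte receptor, did not pass the test (0.10). Hbb-bs, an adult beta globin, went from 19.5, 13.4, 16 and 18.8 CPM to 32.6, 57.7, 34.2 and 51.6 CPM (1.38). The globin genes come in near-identical pairs that can share reads. For Cdh5, C1qa and Hbb-bs the groups did not overlap, and library 1 was the lowest of the miR-106b libraries.

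Of the 15 JG and mural markers 13 were tested, of which 8 rose and 1 fell (median 0.84, summed level 466 to 614 CPM in control and 704 to 950.1 CPM with miR-106b). Cspg4 (NG2), a pericyte proteoglycan, rose by 1.35, Nr1h3, a liver X receptor, by 1.32, Rgs5 by 1.19, Adrb1, the beta-1 adrenergic receptor, by 1.09 and Pdgfrb by 0.84. Ptger4, a prostaglandin receptor, changed by -0.55. Kidney epithelium differed from the other marker lists, with 2 of 5 tested genes fallen, none risen and a summed level of 361 to 524 CPM in control and 237 to 560 CPM with miR-106b. The number fallen was 0 without miR-106b library 1, and 1 without control library 2, 3 or 4 or miR-106b library 2 or 4. Pax8, a renal and thyroid factor, ranged from 162 to 196 CPM in control and from 85.8 to 290.2 CPM with miR-106b.

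**Figure D4:**
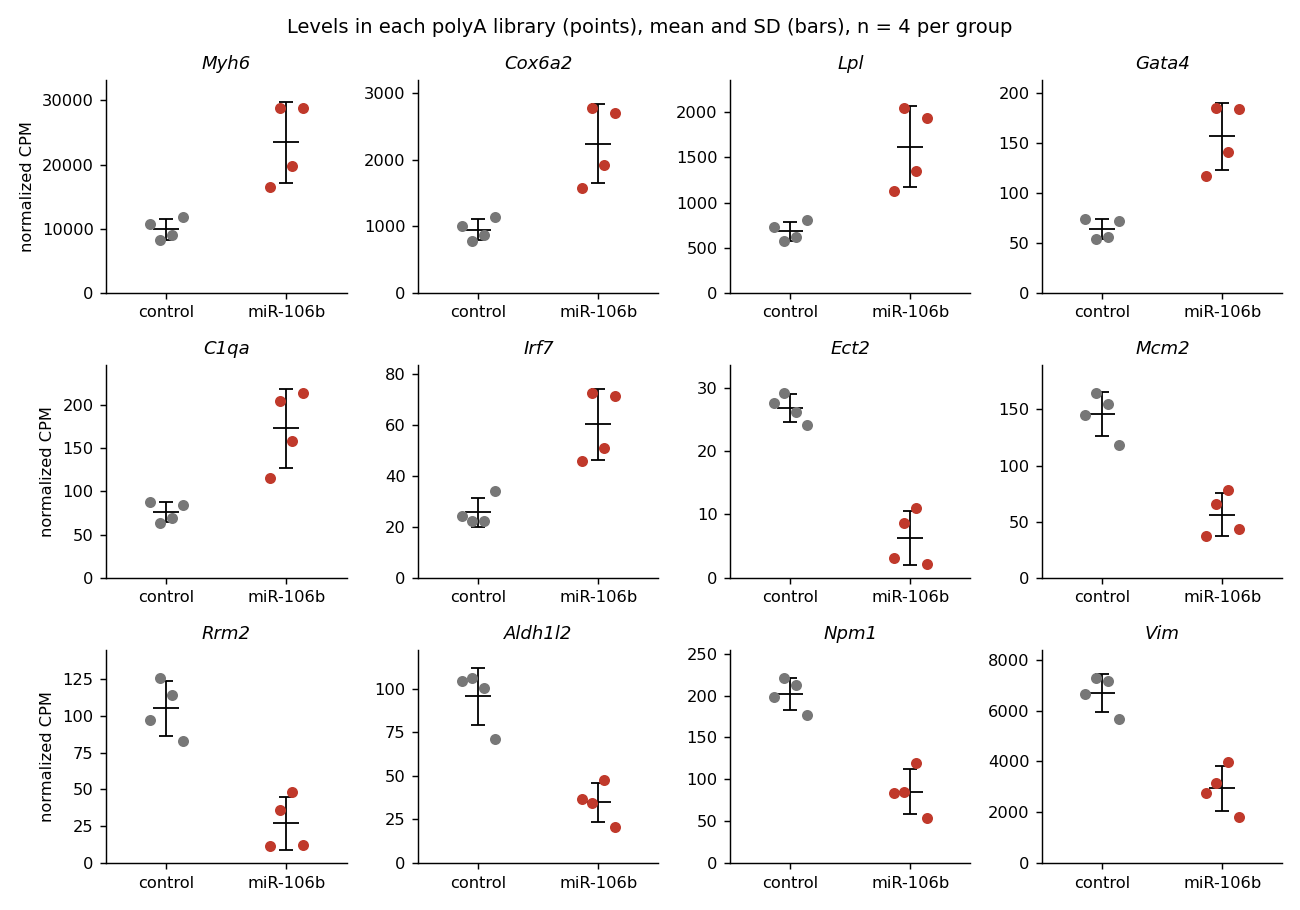
CPM (y axes, linear and starting at 0) of 12 genes, with a point per library and bars for the mean and SD of each group (n = 4). Myh6, Cox6a2, Lpl, Gata4, C1qa and Irf7 are higher in all 4 miR-106b libraries, and Ect2, Mcm2, Rrm2, Aldh1l2, Npm1 and Vim are lower in all 4.

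Interferon and antigen presentation genes rose at low to middle levels. Of 26 interferon-response genes 18 rose and none fell (median 0.91), with 12 to 21 risen over the alternatives, and of 13 genes of MHC class I and antigen processing 10 rose (median 0.60). Of the 18 interferon-response genes that rose, 1 had passed the filter only through miR-106b, where it was higher. Irf7, which amplifies the interferon response, stood at 24.3, 22.1, 22.3 and 34.1 CPM in control and at 45.7, 72.7, 51.0 and 71.3 CPM with miR-106b (log2 fold change 1.23 with SE 0.187, adjusted p = 0.000787 in edgeR's quasi-likelihood test). Oas2, an antiviral synthetase, rose by 1.30 and Nlrc5, the transactivator of MHC class I, by 1.34. Ifit2 (-0.23) and B2m (0.15) did not pass the test. The H2 genes resemble each other and can share reads.

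Cytokine genes had no common direction, with 3 risen and 3 fallen of 14. The number risen was 5 without miR-106b library 1 and with DESeq2 size factors or upper quartile scaling. Of the 3 that fell, 1 had passed the filter only through control, where it was higher. Cxcl12 went from 147, 124, 120.2 and 161 CPM to 494, 313, 217 and 489 CPM. Lif and Il11, cytokines of the interleukin-6 family, changed by -1.07 and -1.57, and the groups of Il11 overlapped.

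Matrix and cytoskeleton were divided. Of 32 collagens and matrix proteins 11 rose and 9 fell (median 0.04), with 5 fallen without control library 2. Col1a2, a chain of type I collagen, rose by 1.24, and Postn, periostin, by 1.43. Col1a1, the partner chain, rose by 0.56, from 7449, 7009, 7132 and 8120 CPM to 15340, 8958, 7977 and 11617 CPM, with overlapping groups. Fn1, fibronectin, fell by 1.14 on the log2 scale, from 10172, 11287, 10650 and 10187 CPM to 4706, 4962, 6547 and 2977 CPM. Every miR-106b library was lower for Fn1.

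Of 21 genes of the actin cytoskeleton and smooth muscle 10 fell and 4 rose (median -0.33). Vim, vimentin, the intermediate filament of mesenchymal cells, went from 6656, 7298, 7179 and 5660 CPM to 2768, 3153, 3992 and 1828 CPM (log2 fold change -1.19 with SE 0.215, adjusted p = 0.00125 in edgeR's quasi-likelihood test). Des, desmin, the intermediate filament of muscle, went the other way, from 1163, 913, 994 and 1294 CPM to 1825, 3144, 2126 and 3121 CPM (1.23). Flna, an actin cross-linker, Actg1, a cytoplasmic actin, and Actn1, the non-muscle alpha-actinin, changed by -1.06, -0.89 and -0.85. Actn2 rose, as described above, so that the muscle and non-muscle forms of alpha-actinin moved in opposite directions.

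Of 29 genes of lysosomes and autophagy 10 rose and 2 fell, or 6 rose without control library 1, and the number fallen was 1 to 4 without 1 library. Map1lc3a, an LC3 protein of autophagosomes, rose by 1.05 and Tfeb, the factor that drives lysosomal genes, by 0.91. Of 14 hypoxia-response genes 8 rose and 1 fell (median 0.48), with Epas1 (HIF-2 alpha), which is high in endothelium, rising by 1.24. Of 18 circadian clock genes 5 rose and 1 fell, and 8 rose without miR-106b library 1. Dbp, a clock output factor, rose by 0.88.

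Growth and stress factors leaned to falls. Of 20 immediate early genes 7 fell and 2 rose (median -0.32), and 1 rose without control library 2 or 3 or miR-106b library 2 or 4. Myc, which drives growth and ribosome genes, went from 114, 132, 119 and 102 CPM to 31.9, 45.9, 65.4 and 21.2 CPM (log2 fold change -1.50 with SE 0.26, adjusted p = 0.00132 in edgeR's quasi-likelihood test). Fosl1, an AP-1 subunit, had the largest fall of the list at -2.03. Of 24 p53 targets and apoptosis genes 10 fell and 3 rose (median -0.30). Mdm2, the ligase that removes p53, changed by -0.68 and Bid, a pro-apoptotic protein, by -1.30, while Perp rose by 1.12 and Sesn1 by 0.92. Of 263 tested Zfp zinc finger genes 26 rose and 34 fell, 22.8% called in all against 42.4% of all genes, with a median of -0.10 that changed sign with the scaling. Their median level was 9.14 CPM, and of all genes from 3 to 10 CPM 35.9% were called. Of the 26 Zfp genes that rose, 1 had passed the filter only through miR-106b. The Zfp falls numbered 22 without control library 1, and the rises 14 and 16 without control libraries 2 and 3.

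Sites for the miR-106b-5p seed were sought in the 3′UTRs of 12848 tested genes. The whole-seed match is GCACTTT, called a 7mer-m8 site, and GCACTTTA, with an A opposite the first base of the miRNA, an 8mer site. At least 1 such site was found in 1904 genes (14.8%), whose median log2 fold change was -0.12, against -0.05 in the 10944 genes without. Of the genes with a site 25.9% fell and 18.4% rose, against 23.6% and 21.9% without. For 291 genes with 2 or more sites the median was -0.17 and 30.6% fell. The 379 genes with a match to the seed of the 3p arm had a median of -0.06, that of all genes.

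The median with a site minus the median without was -0.047, -0.048, -0.027 and -0.104 in miR-106b libraries 1 to 4, on log2 ratios to the control mean, and -0.019 to 0.012 in the control libraries. Genes with a site had longer 3′UTRs, with a median of 2552 against 1053 bases. Within the longest 25% of 3′UTRs the medians were -0.15 and -0.10, in the next -0.12 and -0.07, in the next -0.06 and -0.03, and within the shortest 25% they were 0.06 and 0.00. The share that fell was higher with a site in the longest (29.1% against 25.2%) and the shortest (24.7% against 22.4%) and lower in the middle groups (21.6% against 23.2% and 22.6% against 24.0%). By level, the share that fell was higher with a site in 4 of 6 ranges, close to equal from 3 to 10 CPM (13.2% against 13.6%) and lower from 100 to 300 CPM (32.1% against 34.7%), and the median was lower with a site in all ranges but the last named (-0.10 against -0.12). The difference by site thus was not uniform over length or level.

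**Figure D5:**
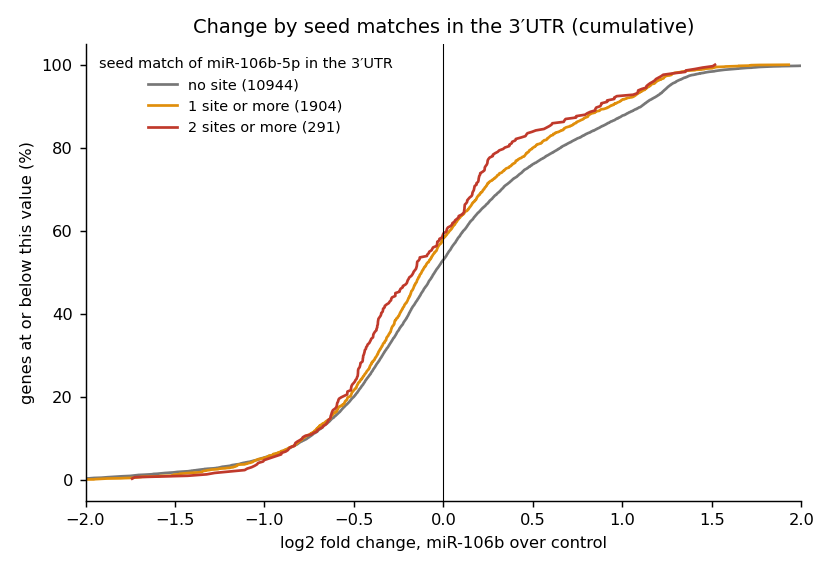
Cumulative share of genes (y axis) by log2 fold change (x axis) for genes with no site, with 1 or more and with 2 or more sites for the miR-106b-5p seed. The curve of the genes with a site lies slightly to the left, with a median of -0.12 against -0.05.

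Against 14.8% of all genes, a site was held by 2 of 32 mitosis genes (6.25%), 3 of 30 replication genes (10%) and 1 of 25 sarcomere genes (4%), whose 3′UTRs were short, with medians of 634, 458.5 and 344 bases against 1228.5 over all. In the E2F and retinoblastoma family, with a median of 1398 bases, it was 7 of 13. Sites are printed for the genes with the largest falls among listed genes with an 8mer, for E2f1 and Rbl1 as reported targets that fell, and for Txnip as one that rose. The site is in capitals, which in an 8mer takes in the A opposite the first base of the miRNA, outside the seed. The coordinates are those of GRCm38. Cep55 lies at chr19:38073549-38073574 on the plus strand, Kif23 at chr9:61917427-61917452, Mcm3 at chr1:20803157-20803182, E2f1 at chr2:154560204-154560228 and chr2:154559689-154559713 and Rbl1 at chr2:157147469-157147493, all on the minus strand, and Txnip at chr3:96561231-96561256 on the plus strand.
Cep55: ttctttatagGCACTTTAaaccacag
Kif23: aaaaaaaaatGCACTTTAgacatatt
Mcm3: ccacccccagGCACTTTAgtccagga
E2f1, first site: ggctctaactGCACTTTtggtgtcc
E2f1, second site: cctccagtctGCACTTTgatttgtt
Rbl1: cctgatcaaaGCACTTTtggattgt
Txnip: gatgttcttaGCACTTTAgcttgtca

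All 20 reported targets of the miR-17 family that were tested held at least 1 site. Of these 6 fell, 3 rose and 11 did not pass the test, so that the 9 called are close to the background of 42.4% of all genes, with a median of -0.11, whose sign changed with the scaling. E2f1, the activating E2F, stood at 62.1, 70.5, 54.9 and 45.0 CPM in control and at 46.4, 28.7, 33.4 and 17.5 CPM with miR-106b (log2 fold change -0.86 with SE 0.23, adjusted p = 0.00998 in edgeR's quasi-likelihood test). miR-106b library 1 lay just above control library 4. Rbl1 (p107), a pocket protein that restrains E2F, changed by -1.005, from 11 to 22.1 CPM to 6.70 to 10 CPM. Bmpr2, Cdkn1a and Limk1 changed by -0.60, -0.59 and -0.56.

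The targets that rose were Txnip, an inhibitor of thioredoxin and glucose uptake (0.88), Vegfa, the angiogenic factor (0.81), and Ulk1, the kinase that starts autophagy (0.46). Txnip went from 105.9, 92.7, 99.6 and 112 CPM to 199, 190.1, 151 and 215 CPM, without overlap. Rb1 (-0.29), Rbl2 (0.16), Stat3 (0.23), Bcl2l11 (0.24), Hif1a (-0.04), Sqstm1 (-0.07), Tgfbr2 (-0.16), Pkd2 (-0.32), Itch (-0.37), Zbtb4 (0.17) and Trp53inp1 (0.11) did not pass the test.

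Promoters from RefSeq on GRCm38.p6, 300 bases around the annotated start with most of them upstream, were found for 10069 of the tested genes and searched on both strands for short motifs. An E2F element, TTTCCCGC or TTTGGCGC, was in 1.63% of all 27025 promoters and 2.96% of those of the genes tested, 4.37% of those of fallen and 1.25% of those of risen genes. It was in 10 of 23 promoters of DNA replication genes and in none of 28 of mitosis genes. The interferon-stimulated response element, GAAA repeated after any 2 bases, was in 3.49% of all promoters, 2.95% of those tested and 11 of 18 of the interferon list. The element of the ATF4 response, TGATGNAA, was in 4.06% of all promoters, 2.096% of those tested and 4 of 17 of the serine and ATF4 list. The other elements searched were rare. That of the estrogen-related receptors, TCAAGGTCA, was in 0.407% of all promoters, 0.268% of those tested and 0.386% of those of risen genes, in 0 of 22 of the fatty acid list and in 1 of 33 of the respiratory chain. A sterol element, TCACCCCAC, was in 0.522% of all promoters, 0.546% of those tested and 1 of 14 of the cholesterol list. A match is a description and not a site of binding.

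The promoters printed show such a match in capitals for one member each of the replication, interferon and ATF4 lists, those with large changes. They are read along the minus strand of GRCm38.p6. Pole2, an accessory subunit of the polymerase of Pole, changed by -1.99 and lies at chr12:69228141-69228440. Oas1a, an antiviral synthetase, rose by 1.39 and lies at chr5:120907476-120907775, where the capitals hold 2 overlapping matches. Asns, asparagine synthetase, changed by -1.65 and lies at chr6:7693160-7693459.
Pole2: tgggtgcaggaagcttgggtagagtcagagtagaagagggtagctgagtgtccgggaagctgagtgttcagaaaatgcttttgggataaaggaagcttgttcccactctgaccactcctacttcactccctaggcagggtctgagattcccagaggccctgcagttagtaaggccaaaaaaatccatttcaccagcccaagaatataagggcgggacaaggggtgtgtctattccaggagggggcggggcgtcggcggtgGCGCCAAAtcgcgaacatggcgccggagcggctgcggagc
Oas1a: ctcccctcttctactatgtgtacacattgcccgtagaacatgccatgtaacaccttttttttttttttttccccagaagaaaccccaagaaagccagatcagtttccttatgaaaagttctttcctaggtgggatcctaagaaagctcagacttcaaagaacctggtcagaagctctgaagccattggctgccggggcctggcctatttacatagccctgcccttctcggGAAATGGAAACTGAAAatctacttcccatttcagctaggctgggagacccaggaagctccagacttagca
Asns: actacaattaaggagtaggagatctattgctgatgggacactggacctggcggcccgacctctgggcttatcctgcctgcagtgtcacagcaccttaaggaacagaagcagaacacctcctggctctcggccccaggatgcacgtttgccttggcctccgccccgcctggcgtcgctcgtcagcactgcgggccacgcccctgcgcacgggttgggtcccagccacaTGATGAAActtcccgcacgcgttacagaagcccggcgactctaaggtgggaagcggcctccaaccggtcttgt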

How the data were processed

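RNA was sequenced from 8 polyA libraries, 4 per group, assigned by their titles. The values are counts as deposited by the authors, whole numbers of reads per gene without normalization, made by aligning reads to GRCm38 with TopHat2 (version 2.0.10 in the submitters' processing notes, another version in the study's methods) and counting with HTSeq. Strand is not given in the sources used here, so antisense and overlapping genes cannot be told apart.

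Genes with at least 1 CPM in at least 3 of 4 libraries of either group were scaled by TMM and tested with edgeR 4.0.16 (limma 3.58.1, R 4.3.3; glmQLFTest with robust dispersion, two-sided, Benjamini-Hochberg, threshold 0.05; fold changes with a prior count of 0.125). DESeq2 1.42.0 served as an alternative. Tables and figures used Python 3.11.15, numpy 2.4.6, pandas 2.3.3 and matplotlib 3.10.9. CPM are counts scaled by TMM. The fit was tested on simulated counts of this comparison (4 draws per fold, 13947 to 13983 genes passing the filter). Of 200 genes changed 1.5-fold it recovered 13 to 26, of 200 changed 2-fold 123 to 131 and of 200 changed 3-fold 169 to 176, all in the right direction, with 1 to 17 false calls per draw. The draws gave both groups the same spread and balanced rises and falls. They therefore do not measure the error among the 6053 genes called here, where the miR-106b libraries had the larger spread. Where a library gives 1 value, groups were compared by exact permutation (two-sided). The alternatives were other scalings, filters and tests, a replicate block, thinned counts and leaving out each library.

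Genes were named by rule: in each range the 2 largest rises and falls with non-overlapping groups, and in each list up to 3 risen and 3 fallen members with the smallest adjusted p and those at the ends, plus markers and reported targets. Some genes the rule names are not reported here. Beyond that rule, Kif23, Mcm3, Asns, Oas1a and Pole2 were chosen for their sequences after their values were seen. The members and lists were chosen with earlier results of these data known. The 3′UTRs are those of GENCODE M21, and promoters (the first listed start per gene) and miRNAs those of RefSeq on GRCm38.p6. P-values measure the spread between 4 cultures per group.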

Additional observations from a re-analysis of the deposited data

Results flagged for a closer look

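In groups of 4 libraries, a library was singled out when its gap to the nearest of the others passed Dixon's 95% critical value for its share of the group's range, which chance does in about 1 of 20 groups. Of 160 groups checked 4 were singled out. The summed level of kidney epithelium markers was 524.1 CPM in control library 4 and 361.5 to 388.1 CPM in the other control libraries. Klhl1 stood at 2.962 CPM in control library 4 and at 5.043 to 5.421 CPM in the others. Col28a1 was at 0 CPM in control library 1 and at 0.2991 to 0.3484 CPM in the others. Insm1 was at 0.5518 CPM in miR-106b library 3 and at 0 CPM in the others.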

How the results depend on the processing

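The number of genes called ranged from 4515 to 7269 over the alternatives, and every gene called both there and in the reported fit kept its direction. Without 1 library it was 4515 to 6674, with 2147 to 3542 risen and 2368 to 3295 fallen. With TMM referred to miR-106b library 2 the fallen genes numbered 2101. DESeq2's Wald test called 5940. Of the genes named by range, Bmf, Etv4, Sfrp2, Il1rl1 and Hmga2 did not pass without a filter on low counts. The difference of medians by seed site lay between -0.08 and -0.05 under other definitions of a site.

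The replicate numbers did not pair the libraries, since correlations of same-numbered libraries were -0.08, -0.12, 0.06 and 0.23 and those of other pairs -0.23 to 0.17. With a replicate block 5506 genes were called, 2587 higher and 2919 lower.

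Depth limits the lowest ranges, since the miR-106b libraries were the shallower. With all libraries thinned to 2815272 counts 5266 genes were called. The larger spread of the miR-106b libraries limits small changes.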

Other observations

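Some genes were high in only 2 of the miR-106b libraries, a pattern chosen after the values were seen. In 22 genes miR-106b libraries 1 and 4 both exceeded 2 times the highest control library, while libraries 2 and 3 were not above it, and 0 genes showed the opposite pattern. Of these 22 genes 7 passed the test, against 42.4% of all genes tested. Npr3, the clearance receptor for natriuretic peptides, stood at 47.0, 34.4, 35.1 and 44.8 CPM in control and at 327, 25.2, 31.5 and 211 CPM in miR-106b libraries 1 to 4. Fbln7, a matrix fibulin, stood at 1.73, 1.98, 1.35 and 3.83 CPM in control and at 41.0, 1.88, 1.66 and 39.8 CPM. Angpt4, an angiopoietin, was at 2.61 to 4.53 CPM in control and at 39.0, 1.61, 4.41 and 24.5 CPM. Agt, which encodes angiotensinogen, the substrate of renin, was at 24.8 to 50.5 CPM in control and at 105, 36.2, 36.4 and 113 CPM. Npr3 and Agt did not pass the test, while Fbln7 and Angpt4 did.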
